A study of Homo sapiens with 18 samples.

Results

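The genes described here are ATF4, a transcription factor of the cellular stress response, and 9 genes that are commonly listed among its targets or partners: CHAC1, DDIT3, ATF3, CEBPB, TRIB3, SESN2, DDIT4, ASNS and VLDLR. These 10 of the 26475 gene symbols in the count table were chosen by name, from earlier results on the same libraries in which the changes with each inhibitor were already known. Their changes with the inhibitors are therefore given as a description: counts of calls stand beside the share of all genes called, with no p for a single gene, and nothing is read from them. All 10 were measured and all 10 passed the filter on low counts. RNA-seq was made from Mel92.1 and MP41, 2 uveal melanoma cell lines, grown for 48 h with the solvent DMSO or with 1 μM of an inhibitor, UNC0642 or A366. Both compounds inhibit EHMT2 (also called G9a), an enzyme that places methyl groups on lysine 9 of histone H3. Each of the 6 groups holds 3 replicates, 18 libraries in all, and every library comes from an established line grown in culture, with no gene deleted or added. The series calls the replicates biological but does not say whether they were separate cultures, so the p-values measure the spread between these libraries, which may be technical.

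Mammalian cells answer amino acid shortage, a stressed endoplasmic reticulum, double-stranded RNA or lack of heme with one of 4 kinases that phosphorylate the initiation factor eIF2. General protein synthesis then slows, while the ATF4 message is translated more. ATF4 pairs with other bZIP factors such as CEBPB and DDIT3 and switches on genes for amino acid supply, for restraint of growth signalling and, under lasting stress, for cell death. Because ATF4 is controlled largely through translation, its mRNA level alone does not give its protein level.

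ATF4 and its C/EBP partners bind a composite DNA site, spelled TGATGNAA here and searched on both strands. In the RefSeq promoters of build GRCh38.p14 (the 250 bases before each annotated start), the site was found in 3 of the 10 genes, CHAC1, ASNS and ATF3, and in 3.89% of the 27305 genes with a promoter (3.14% of 35116 promoters). The 3 stretches are shown because they are the places in these promoters where the letters of the site occur, and the capitals mark the match. Each is written along its gene's strand:
CHAC1: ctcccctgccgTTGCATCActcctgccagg
ASNS: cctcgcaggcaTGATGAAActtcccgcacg
ATF3: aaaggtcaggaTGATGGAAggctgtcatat
The CHAC1 stretch is chr15:40953251-40953280 on the plus strand, with the match 202 bases before the RefSeq start. In the GENCODE 29 annotation of GRCh38 those letters lie in an untranslated exon of 2 CHAC1 transcripts. The ASNS stretch is chr7:97872458-97872487 on the minus strand. Its match is 61 bases before 1 of 2 RefSeq starts and inside an untranslated exon of 2 GENCODE 29 transcripts. The ATF3 stretch is chr1:212565205-212565234 on the plus strand. Its match is 184 bases before 1 of 2 RefSeq starts and outside the GENCODE 29 gene. The other promoter of ASNS and that of ATF3 held 0 matches. The CHAC1 match reads TTGCATCA, the reverse of TGATGCAA, which is 1 form of the same site and occurs in 0.772% of promoters. The palindrome TGACGTCA, bound by other ATF factors, was found in 0 of the 10 genes and in 1.65% of promoters. Nothing in these libraries measures binding, and a missing match says only that the letters are not in this window.

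Total counts ran from 23601160 to 62941453 per library, and 4 ribosomal RNA genes took 3.31% to 32.8% of them. The highest ribosomal share and the lowest total were in Mel92.1 UNC0642 replicate 1, which stood apart. In 4 libraries the expressed genes went against the labelled line. With 20 genes that mark Mel92.1 and 21 that mark MP41 in the DMSO libraries, the libraries labelled A366 replicates 2 and 3 of either line held 0.0129% to 0.0384% of the marker level of their labelled line and 92.4% to 115% of that of the other line. The other 14 libraries held at most 0.272% of the other line's marker level. The study's own values per replicate also list those 4 under the other line, and they are placed so below. Values of the A366 groups are given in the order of replicates 1, 2 and 3, so that the last 2 values of Mel92.1 come from libraries labelled MP41 and the reverse. The melanocyte genes MITF, PMEL, MLANA, TYR, DCT and SOX10 were present in every group, at a summed level of 8320 to 12900 CPM, the counts of a gene scaled to a common library size. Summed leukocyte markers stayed at or below 1.19 CPM, epithelial markers at or below 1.64 CPM and endothelial markers at or below 3.14 CPM. Summed fibroblast markers were higher, at 22.4 to 53.3 CPM, with 2 of 4 genes under 1 CPM in each group. All CPM are on one scale for the 18 libraries, and in bulk RNA less RNA per cell cannot be told apart from fewer cells that hold it.

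The first question was how high these genes stood without inhibitor. Per kilobase of transcript, ATF4 was the most abundant, at 193.2 ± 14.9 CPM per kb (SD, n = 3) in Mel92.1 and 116.4 ± 1.99 in MP41. ATF3, a bZIP factor that appears early under stress, was the least abundant, at 5.22 ± 0.444 CPM per kb in Mel92.1 and 3.46 ± 0.214 in MP41. The other 8 lay between them. In Mel92.1 the order from the top went on with TRIB3 (23.6 ± 1.68), CEBPB (15.8 ± 1.41), ASNS (14.7 ± 0.164), DDIT4 (13.7 ± 1.04), CHAC1 (13.6 ± 2.03), DDIT3 (10.9 ± 1.41), VLDLR (9.28 ± 1.83) and SESN2 (6.89 ± 0.522), and the SD of CHAC1 reached both DDIT4 and ASNS. In MP41 it went on with DDIT4 (42.1 ± 1.03), ASNS (24.7 ± 1.34), DDIT3 (19.8 ± 2.14), CEBPB (17.1 ± 0.882), TRIB3 (13.1 ± 0.997), VLDLR (11.3 ± 0.197), CHAC1 (8.46 ± 0.625) and SESN2 (7.45 ± 0.594). CHAC1, an enzyme that degrades glutathione, stood in the middle of the order in Mel92.1 and near its lower end in MP41.

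Between the lines with DMSO, the quasi-likelihood test of edgeR, adjusted by Benjamini-Hochberg over all genes, called 3 of the 10 genes higher in Mel92.1 and 3 lower. Of all 15799 genes in that fit, 34.5% were called higher and 34.8% lower, so these counts are near the background. The DMSO libraries are also the reference of the inhibitor changes known when the genes were chosen. The adjusted p-values below therefore describe these libraries and are no independent test. TRIB3, a pseudokinase that restrains ATF4, was higher in Mel92.1 by 0.85 ± 0.101 (log2, SE; adjusted p = 8.48e-07), and ATF4 by 0.73 ± 0.0736 (adjusted p = 1.00e-07). CHAC1 was higher by 0.68 ± 0.205 (adjusted p = 0.00703). CHAC1 has a GC content of 62.6%, and when the fit also took account of GC content and transcript length its difference was -0.03, with adjusted p = 0.89. DDIT4, also known as REDD1 and a brake on the growth kinase complex mTORC1, was lower in Mel92.1 by -1.62 ± 0.116 (adjusted p = 1.12e-09). DDIT3, which encodes CHOP, was lower by -0.86 ± 0.154 and ASNS, the asparagine synthetase, by -0.75 ± 0.0847. SESN2, VLDLR, ATF3 and CEBPB did not pass the test, with 95% intervals of the log2 difference from -0.31 to 0.08, from -0.56 to -0.02, from -0.17 to 1.35 and from -0.41 to 0.19. The same adjustment put SESN2 at -0.57, CEBPB at -1.02 and VLDLR at 0.32, each then called, and ATF3 was called without Mel92.1 UNC0642 replicate 1 (adjusted p = 8.36e-05).

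**Figure D1:**
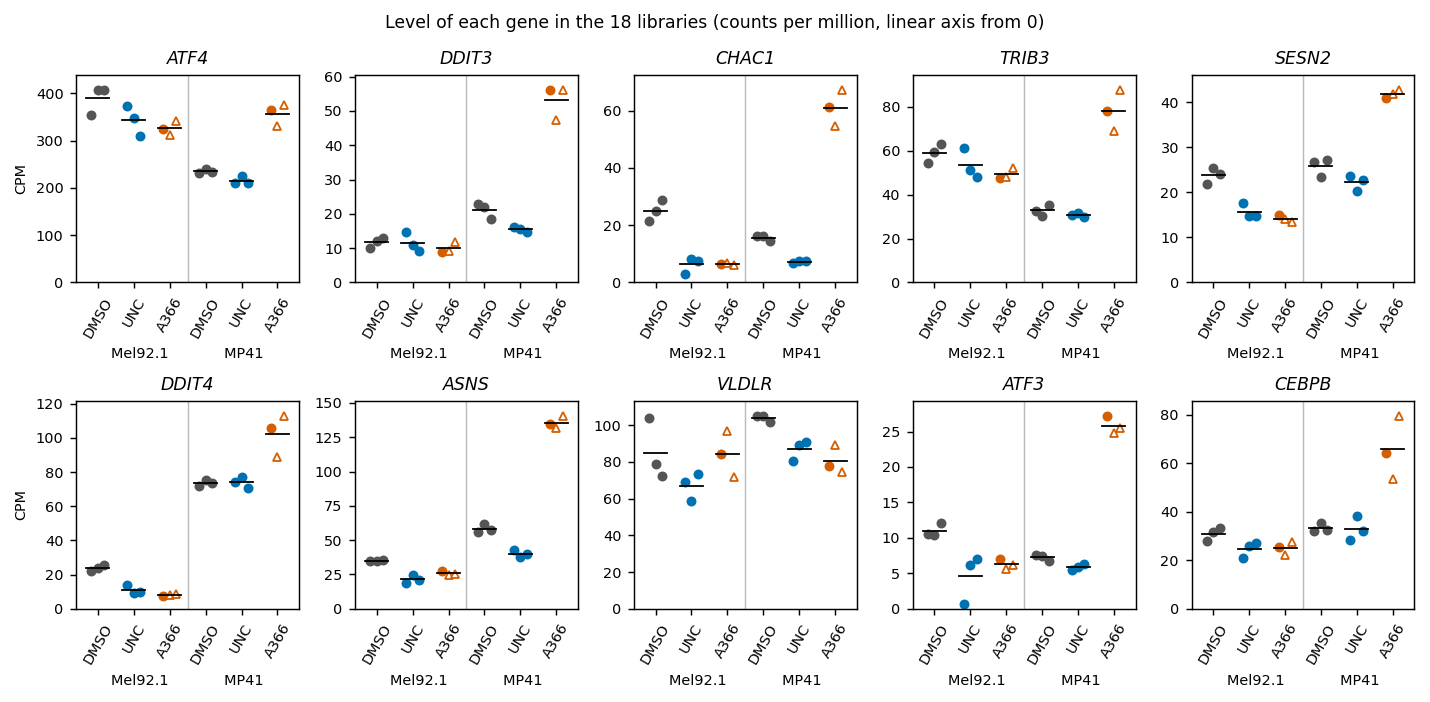
CPM (vertical axis, linear from 0) of each of the 10 genes in the 18 libraries, by line and treatment (UNC stands for UNC0642). Points are libraries, open triangles are the 4 libraries labelled as the other line, and black lines are group means. In MP41 with A366, CHAC1 sits between 54.6 and 67.25 CPM, above each other group, while VLDLR does not.

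CHAC1 had the largest log2 fold change of the 10 genes with each inhibitor in each line. In Mel92.1 it stood at 21.4, 25.1 and 28.9 CPM with DMSO, at 2.98, 8.34 and 7.56 CPM with UNC0642, and at 6.33, 6.84 and 6.25 CPM with A366. All 6 inhibitor libraries of Mel92.1 lay below the lowest DMSO library. Its log2 fold change was -1.96 ± 0.295 (SE) with UNC0642 and -1.95 ± 0.293 with A366, which left 0.257 and 0.258 of the DMSO level. UNC0642 replicate 1, the library rich in ribosomal RNA, held 49 CHAC1 counts, the fewest of the 18, and the log2 fold change without it was -1.66. Ordered by fold change among the 14528 genes tested in Mel92.1, CHAC1 was number 44 from the lowest with UNC0642 and number 15 with A366.

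In MP41 the 2 compounds gave opposite directions for CHAC1. The DMSO libraries held 16.4, 16.2 and 14.3 CPM, and the UNC0642 libraries 6.825, 7.47 and 7.41 CPM. The A366 libraries held 61.4, 54.6 and 67.25 CPM. No group overlapped another. The log2 fold change was -1.12 ± 0.0973 with UNC0642, or 0.461 of the DMSO level, and 1.94 ± 0.0922 with A366, or 3.84 times it. Across the alternative fits, apart from the libraries as labelled, the A366 value ran from 1.485 to 2.01. Of 14956 genes, CHAC1 was number 118 from the lowest with UNC0642 and number 134 from the highest with A366. Without the 4 libraries that go against their labels, A366 replicate 1 was left in each line and the log2 fold change of CHAC1 with A366 was 1.93 in MP41 and -1.996 in Mel92.1. Taken as labelled, the change with A366 was 0.65 in MP41 and 0.78 in Mel92.1, with both lines mixed in each group.

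ASNS, which makes asparagine from aspartate, moved in the same direction as CHAC1 in all 4 comparisons with DMSO. In Mel92.1 it was at 34.6, 34.5 and 35.2 CPM with DMSO, at 18.8, 24.7 and 21.2 CPM with UNC0642, and at 27.6, 24.9 and 25.4 CPM with A366. In MP41 it was at 55.9, 61.9 and 57.0 CPM with DMSO, at 43.0, 37.8 and 39.8 CPM with UNC0642, and at 134.7, 131.5 and 140.3 CPM with A366. In both lines the 3 groups kept apart, low with UNC0642 and, in MP41 with A366, high. The log2 fold changes against DMSO were -0.69 ± 0.109 and -0.42 ± 0.108 in Mel92.1 and -0.54 ± 0.0723 and 1.19 ± 0.0719 in MP41, for UNC0642 and A366 in this order. GENCODE 29 has a processed transcript on the same strand and a pseudogene on the other strand within ASNS, and several ASNS pseudogenes elsewhere, which the count table does not list.

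For ATF4 itself, Mel92.1 held 355.3, 407.4 and 407.5 CPM with DMSO, 374.2, 347.8 and 309.7 CPM with UNC0642, and 325.6, 312.4 and 342.0 CPM with A366. The UNC0642 libraries overlapped those with DMSO, and the A366 libraries lay just below them. In MP41 the values were 231.4, 239.3 and 234.5 CPM with DMSO, 209.9, 225.1 and 211.5 CPM with UNC0642, and 365.3, 331.7 and 374.8 CPM with A366. The A366 libraries of MP41 thus reached the range of Mel92.1, at a log2 fold change of 0.58 ± 0.0608, or 1.49 times DMSO. Taking GC content and length into account that change was 0.24. With UNC0642 the log2 fold change of ATF4 was -0.19 ± 0.0848 in Mel92.1 and -0.13 ± 0.0608 in MP41.

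Of the other bZIP factors, ATF3 was at 10.5, 10.4 and 12.1 CPM with DMSO in Mel92.1, at 0.729, 6.19 and 7.03 CPM with UNC0642, and at 7.06, 5.56 and 6.15 CPM with A366. The lowest value is 12 counts in UNC0642 replicate 1. The log2 fold change with UNC0642 was -1.19 ± 0.514, and -0.73 without that library. In MP41, ATF3 was at 7.57, 7.50 and 6.76 CPM with DMSO, at 5.402, 5.91 and 6.30 CPM with UNC0642, and at 27.2, 24.7 and 25.5 CPM with A366, a log2 fold change of 1.80 ± 0.0957 with A366. Its A366 libraries were far above the rest. DDIT3 ranged from 8.91 to 14.7 CPM over the 9 libraries of Mel92.1, with all groups overlapping. In MP41 it held 18.6 to 22.8 CPM with DMSO, 14.9 to 16.1 CPM with UNC0642 and 47.2 to 56.1 CPM with A366, a log2 fold change of -0.45 ± 0.0978 with UNC0642 and 1.30 ± 0.0959 with A366. DDIT3 lies across from MARS and MBD6 on the opposite strand, and although the libraries were made strand-specific with dUTP, the strand setting of the counting is not given in the sources used here, so its part in the DDIT3 counts was not tested. CEBPB held 28.0 to 33.4 CPM with DMSO, 21.1 to 27.2 CPM with UNC0642 and 22.4 to 27.5 CPM with A366 in Mel92.1. In MP41 it was at 32.2 to 35.4 CPM, 28.2 to 38.4 CPM and 53.6 to 79.4 CPM in the same order, a log2 fold change of 0.95 ± 0.136 with A366, and of 0.45 when GC content and length were accounted for.

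SESN2 and DDIT4 both encode brakes on mTORC1. SESN2, which also senses leucine, was at 21.9, 25.4 and 24.04 CPM with DMSO in Mel92.1, at 17.6, 14.8 and 14.8 CPM with UNC0642, and at 14.9, 14.0 and 13.3 CPM with A366. DDIT4 in Mel92.1 was at 22.1, 23.8 and 25.8 CPM with DMSO, at 14.0, 9.44 and 9.94 CPM with UNC0642, and at 7.54, 8.15 and 8.36 CPM with A366. For both genes every inhibitor library of Mel92.1 lay below every DMSO library, at log2 fold changes of -0.61 ± 0.110 and -0.75 ± 0.110 for SESN2 and of -1.12 ± 0.154 and -1.57 ± 0.155 for DDIT4, with UNC0642 and A366 in turn. In MP41, SESN2 held 23.4 to 27.1 CPM with DMSO, 20.4 to 23.7 CPM with UNC0642 and 40.9 to 42.7 CPM with A366. DDIT4 held 71.9, 75.5 and 73.6 CPM with DMSO, 74.3, 77.0 and 70.9 CPM with UNC0642, and 106.0, 89.0 and 112.7 CPM with A366. The DDIT4 libraries with UNC0642 and DMSO covered the same range in MP41, where its log2 fold change was 0.00 ± 0.0825 with UNC0642 and 0.45 ± 0.0823 with A366. The A366 value of DDIT4 in MP41 was 0.05 once GC content and length were accounted for. An antisense gene overlaps each of DDIT4, VLDLR and CEBPB.

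TRIB3 was at 54.6 to 62.96 CPM with DMSO, 47.9 to 61.4 CPM with UNC0642 and 47.6 to 52.1 CPM with A366 in Mel92.1. In MP41 it held 30.4 to 35.4 CPM with DMSO, 29.8 to 31.6 CPM with UNC0642 and 68.8 to 87.7 CPM with A366, a log2 fold change of 1.23 ± 0.0905 with A366. VLDLR, a lipoprotein receptor, was at 104.0, 78.6 and 72.3 CPM with DMSO, at 69.2, 58.6 and 73.3 CPM with UNC0642, and at 84.3, 96.9 and 71.7 CPM with A366 in Mel92.1, with all groups overlapping. In MP41 it was at 104.8, 104.7 and 101.6 CPM with DMSO, at 80.5, 89.2 and 91.0 CPM with UNC0642, and at 78.0, 89.0 and 74.4 CPM with A366. Both inhibitors thus left VLDLR below DMSO in MP41, by -0.26 ± 0.0800 and -0.39 ± 0.0800 (log2) for UNC0642 and A366. The A366 value was 0.04 after the GC and length adjustment, for a gene whose GC content is 42.7%.

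**Figure D2:**
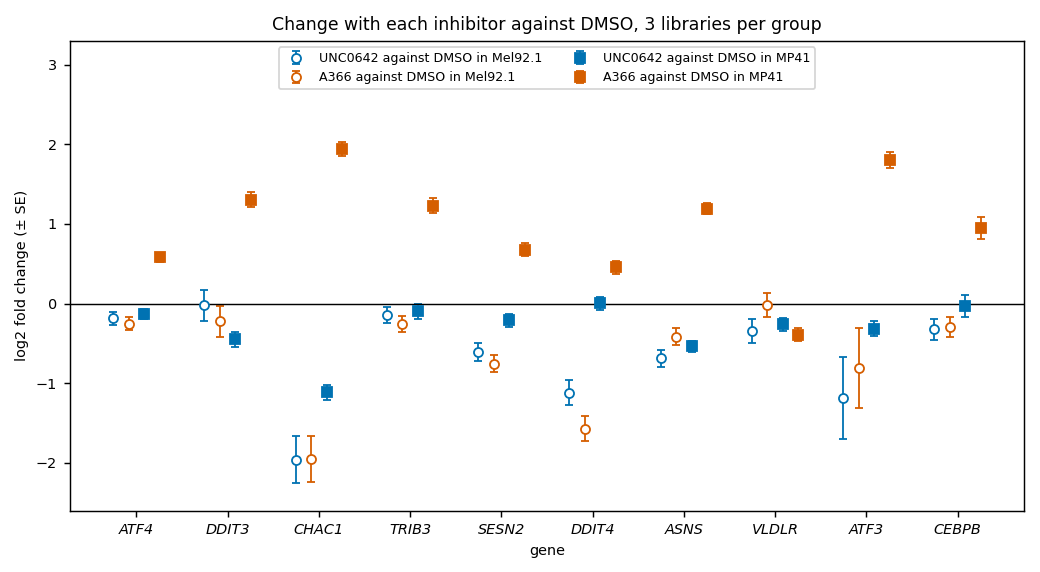
Log2 fold change against DMSO (vertical axis, ± SE) of the 10 genes for each inhibitor and line, with 3 libraries per group, fitted per line in edgeR. Open circles are Mel92.1 and filled squares MP41, and the A366 squares stand above 0 for 9 genes and at -0.39 for VLDLR.

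Counted over the 10 genes, UNC0642 in Mel92.1 gave 4 genes called lower (CHAC1, DDIT4, ASNS and SESN2) and 6 with a log2 fold change below 0 that were not called. Of all genes tested there, 0.688% were called in either direction and 0.138% lower. The libraries of 6 genes did not overlap with DMSO and were lower, against 8.03% of all genes. With A366 in Mel92.1, 3 genes were called lower (CHAC1, DDIT4 and SESN2), where 0.213% of all genes were called and 0.0344% lower. The libraries of 8 genes lay below DMSO without overlap, against 7.23% of all genes. The median log2 fold change of the 10 genes was -0.48 with UNC0642 and -0.36 with A366, beside -0.02 and -0.01 over all genes. Both comparisons share the 3 DMSO libraries, and these contrasts were known when the genes were chosen. The calls in Mel92.1 also rest on few libraries. With the 4 libraries that go against their labels left out, edgeR called 0 of the 10 genes with UNC0642. Of all genes it called 0.263% there, and 6 of the 10 genes had an unadjusted p under 0.05. That set leaves 1 A366 library in Mel92.1, so no calls are given for A366. CHAC1 then stood at -1.97 with UNC0642 and -1.996 with A366. Without Mel92.1 DMSO replicate 2 or 3, 0 genes were called with UNC0642 (5 at an unadjusted p under 0.05). With A366, 1 gene was called without any 1 of 7 libraries (all of Mel92.1 but UNC0642 replicates 1 and 3). For fits without 1 library, here and below, the share of all genes called is not given. A lost call there cannot be told apart from fewer calls among all genes. With all libraries, DESeq2 called 4 genes lower for each inhibitor, where it called 2.64% of all genes with UNC0642 and 1.18% with A366. Limma voom with quality weights called 5 with UNC0642 and 9 with A366, where it called 2.84% and 21.2% of all genes.

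Library measures moved with UNC0642 in Mel92.1. Ribosomal RNA took 32.8%, 10.1% and 19.5% of counts with UNC0642, against 6.5% to 12.5% with DMSO, and the summed melanocyte markers were at 11900 to 12900 CPM, against 10000 to 10900 CPM without overlap. The summed fibroblast markers of Mel92.1 were at 35.4 to 45.7 CPM with UNC0642 and at 42.5 to 46.9 CPM with A366, against 48.4 to 53.3 CPM with DMSO. UNC0642 replicate 1 held 63.8% of the DMSO level of the genes that mark Mel92.1, and the other replicates 93.2% and 91.3%. The part of these in the values of the 10 genes was not tested, beyond the values without replicate 1 given above.

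In MP41, UNC0642 gave 2 genes called lower (CHAC1 and ASNS), where 0.241% of all genes were called and 0.127% lower. The libraries of 6 genes lay below DMSO without overlap, against 9.29% of all genes, and the median log2 fold change was -0.24, beside 0.00 over all genes. Without any 1 of the MP41 DMSO libraries, or UNC0642 replicate 2 or 3, 1 gene was called, and 4 without the library labelled Mel92.1 A366 replicate 2. With A366 all 10 genes were called, 9 higher and VLDLR lower. A366 in MP41 also moved 46.0% of all genes tested, 22.5% higher and 23.5% lower, so a call there is common. The libraries of 9 genes lay above DMSO without overlap and those of VLDLR below, against 31.4% and 26.7% of all genes. The median log2 fold change of the 10 genes was 1.07, beside 0.02 over all genes. With the 2 A366 libraries labelled Mel92.1 left out, 1 A366 library was left in MP41, and the log2 fold changes of the 10 genes kept their directions.

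Several library measures moved with A366 in MP41. Ribosomal RNA took 5.93% to 11% of counts, against 3.31% to 5.10% with DMSO, and totals were 46220017 to 54800825 counts, against 39230070 to 41585682. The summed melanocyte markers were at 9660 to 10800 CPM, against 8320 to 8390 CPM, with 0 of 6 genes under 1 CPM. The summed endothelial markers PECAM1, VWF and CDH5 were at 2.37 to 3.14 CPM, against 0.369 to 0.584 CPM, with 2 of 3 genes under 1 CPM. VWF held 2.197 to 2.88 CPM of it, and CDH5 had 0 counts in 2 of the 3 A366 libraries. The summed fibroblast markers were at 22.4 to 23.3 CPM, against 27.3 to 30.2 CPM, with 2 of 4 genes under 1 CPM, of which COL1A2 had 0 counts with A366. The part of these in the result was not tested. After the GC and length adjustment 34.7% of all genes were called, and 8 of the 10 genes were called higher, with DDIT4 and VLDLR not called.

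The 2 inhibitors were given at the same dose for the same time, so that they could be compared directly, as 1 pair in each line. The difference is made of the changes with each inhibitor that were known when the genes were chosen, so it is a description too, given with 95% intervals and no p. In Mel92.1, edgeR called 0 of the 10 genes between A366 and UNC0642, with 2 genes at an unadjusted p under 0.05 and 0 called by DESeq2 or limma voom. Of all genes there 0.165% were called, and 1047 of 14528 had an unadjusted p under 0.05. The libraries of 14.5% of all genes did not overlap, as was so for 2 of the 10. For CHAC1 the log2 difference was 0.01 ± 0.292, with a 95% interval from -0.65 to 0.66. A difference between these bounds, in either direction, is compatible with these libraries. The interval of ATF4 ran from -0.26 to 0.12 and that of TRIB3 from -0.34 to 0.12. DDIT4, whose A366 libraries all lay below those with UNC0642, had an interval from -0.80 to -0.11, and ASNS, whose A366 libraries all lay above, one from 0.03 to 0.51.

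In MP41, 9 of the 10 genes were called higher with A366 than with UNC0642. Of all genes there, 21.1% were called higher, and the libraries of 26.8% were higher without overlap. CHAC1 was higher with A366 by 3.06 ± 0.0984 on the log2 scale, or 8.32-fold, number 28 from the highest of 14956 genes. Across the alternative fits, apart from the libraries as labelled, this CHAC1 difference ran from 2.63 to 3.13. ATF3 was higher by 2.12 ± 0.0973, DDIT3 by 1.75 ± 0.0977 and ASNS by 1.73 ± 0.0732. TRIB3, CEBPB, SESN2 and ATF4 were higher by 1.33, 0.98, 0.89 and 0.71. DDIT4 was higher by 0.45 ± 0.0823, and by 0.07 after the GC and length adjustment, when it was not called. VLDLR was not called, at -0.13 with an interval from -0.30 to 0.04, and was called at 0.27 after that adjustment.

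**Figure D3:**
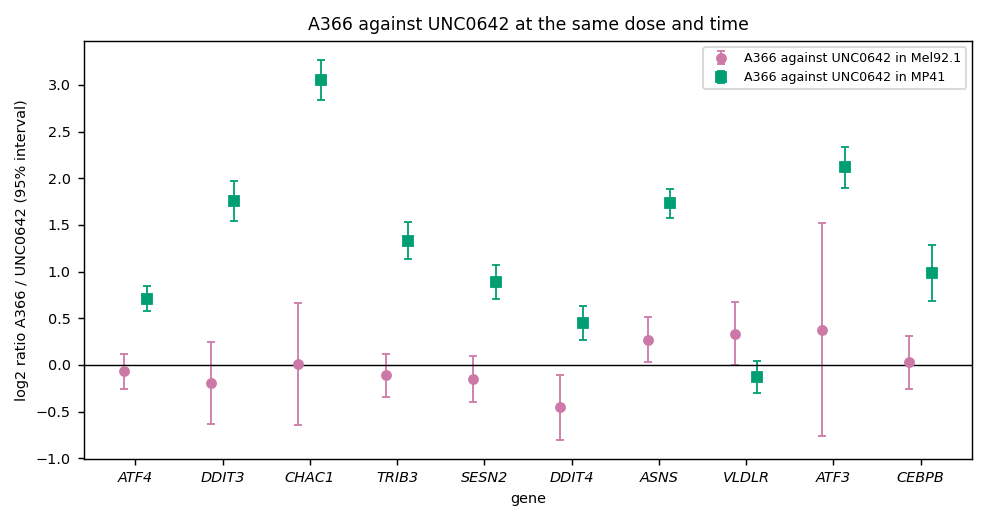
Log2 ratio of A366 to UNC0642 (vertical axis) for the 10 genes in Mel92.1 (circles) and MP41 (squares), with 95% intervals from the edgeR fit of each line. In MP41 the intervals of 9 genes lie above 0, highest for CHAC1 at 3.06, and in Mel92.1 that of CHAC1 runs from -0.65 to 0.66.

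The log2 fold changes with A366 had opposite signs in the 2 lines for 9 genes, again given as a description. All 9 were called in MP41, but only 3 of them in Mel92.1 (CHAC1, DDIT4 and SESN2). In Mel92.1 the intervals of DDIT3 (from -0.656 to 0.214) and ATF3 (from -1.94 to 0.322) included 0, so their sign there is not settled. In MP41 the change of DDIT4 was 0.05 after the GC and length adjustment. Taking Mel92.1 minus MP41, the difference of the CHAC1 change was -3.92 ± 0.300 on the log2 scale, that of ATF3 -2.64 ± 0.512, that of DDIT4 -2.05 ± 0.165 and that of ASNS -1.64 ± 0.120. In all, 9 genes were called lower in this difference, where 8.67% of all genes were, and VLDLR was at 0.35 ± 0.18. Of these, CHAC1 was at -3.95 without the 4 libraries that go against their labels. Across the alternative fits, apart from the libraries as labelled, it ran from -4.02 to -3.37. For UNC0642 only DDIT4 was called among the 10, at -1.14 ± 0.165, where 0.120% of all genes were called lower. CHAC1 was at -0.82 ± 0.300 for UNC0642.

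Beyond the 10 genes, 58 other genes of the same pathway were followed in 6 lists, also chosen with earlier results of these libraries known. Their calls and adjusted p-values are thus a description. Most of the genes named were picked for the largest changes among those called. With UNC0642 in Mel92.1, HERPUD1, which helps to clear proteins from the endoplasmic reticulum, was called lower among 55 genes tested. Of all genes, 0.138% were called lower there. Of the 55, 43 had a log2 fold change below 0, with a median of -0.11 beside -0.02 over all genes. HERPUD1 was at 45.4, 46.2 and 48.6 CPM with DMSO and at 32.4, 32.5 and 30.4 CPM with UNC0642, so that the groups kept apart (log2 fold change -0.56 ± 0.0730, edgeR adjusted p = 0.00671). In MP41 with UNC0642, HERPUD1 was lower too, by -0.52 ± 0.0774 (adjusted p = 0.0188), and WARS, the tryptophanyl-tRNA synthetase, by -0.41 ± 0.0636 (adjusted p = 0.0235). These were the 2 genes called among 54, where 0.127% of all genes were called lower. Both calls in MP41 were lost (0 called) without any 1 of the 7 libraries labelled MP41, and held without either of those labelled Mel92.1. The call of HERPUD1 in Mel92.1 was lost without DMSO replicate 3 (adjusted p = 0.0546). With A366 in Mel92.1, edgeR called 0 of 55, where 0.213% of all genes were called. At an unadjusted p under 0.05 there were 10 of the 55, beside 628 of all 14528 genes. DESeq2 called 2 and limma voom 24, where they called 1.18% and 21.2% of all genes. The median log2 fold change of the 55 was -0.12, beside -0.01 over all genes.

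With A366 in MP41, 31 of the 54 other genes tested were called higher and 10 lower, with a median log2 fold change of 0.38, where 22.5% of all genes were called higher and 23.5% lower. The 10 lower of 54 are near that share. After the GC and length adjustment 29 were called higher and 4 lower, where 16.5% and 18.2% of all genes were. The bZIP partners and regulators held 2 called higher of 3, among them the stress regulator NUPR1, at 28.2, 31.8 and 28.7 CPM with DMSO and at 100.6, 78.9 and 115.9 CPM with A366 (log2 fold change 1.71 ± 0.122, adjusted p = 8.84e-06). The serine, proline and one-carbon enzymes held 6 higher and 1 lower of 7, the amino acid transporters 5 higher of 7, and the aminoacyl-tRNA synthetases 7 higher and 2 lower of 11. The other targets held 10 higher and 2 lower of 19. Among these, ADM2, a secreted peptide, stood at 6.30 to 6.54 CPM with DMSO and at 17.8 to 18.5 CPM with A366 (1.48 ± 0.124, adjusted p = 2.23e-05), and it had 0 counts in each of the 9 libraries of Mel92.1. PCK2, the mitochondrial phosphoenolpyruvate carboxykinase, was at 43.8 to 46.7 CPM with DMSO and at 96.0 to 117.7 CPM with A366 (1.21 ± 0.0826, adjusted p = 6.62e-06).

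The calls in the list around eIF2 depended on that adjustment. Of 7 genes of the eIF2 kinases and eIF2 control, 5 were called lower with A366 in MP41 and 1 higher, with a median log2 fold change of -0.24, where 23.5% of all genes were called lower. After the adjustment 1 was called lower and 1 higher, with a median of 0.00. EIF2AK2, the kinase that senses double-stranded RNA, was at 54.3 to 61.9 CPM with DMSO and at 36.5 to 47.8 CPM with A366 (-0.51 ± 0.102, adjusted p = 0.00207). After the GC and length adjustment EIF2AK2 was at 0.00, and EIF2AK3 at -0.25. EIF2AK3, which encodes PERK, the eIF2 kinase of the stressed endoplasmic reticulum, was lower by -0.43 ± 0.0979 (adjusted p = 0.00397). ERO1A, an oxidase of the same compartment, belongs to the other targets and not to this list. It was at 174.7 to 180.8 CPM with DMSO and at 106.2 to 121.1 CPM with A366 (-0.67 ± 0.0645, adjusted p = 6.41e-05). After the adjustment ERO1A was at -0.33. The gene of the 7 called higher was PPP1R15A, which encodes GADD34, the subunit that reverses eIF2 phosphorylation (0.82 ± 0.0992, adjusted p = 0.000262). PPP1R15A was named here after its value was seen. Between A366 and UNC0642 in MP41, 32 of the 54 genes were called higher and 7 lower, where 21.1% and 22.0% of all genes were. In Mel92.1 edgeR called 0 of 55, and DESeq2 and limma voom 2 each. At an unadjusted p under 0.05 there were 5 of the 55 in edgeR, beside 1047 of all 14528 genes.

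The response to A366 differed between the lines for 30 of the 56 other genes in the fit of both lines, 2 higher in Mel92.1 minus MP41 and 28 lower, where 5.13% and 8.67% of all genes were. NUPR1 was at -0.01 in Mel92.1 and PCK2 at -0.05, next to their changes of 1.71 and 1.21 in MP41. For UNC0642 the difference was called for PHGDH, the first enzyme of serine synthesis, where 0.481% of all genes were called higher. PHGDH was under 1 CPM in each library of Mel92.1 and between 110.9 and 235.6 CPM in MP41, and it was named after its value was seen. With DMSO, 21 of the 56 genes were called higher in Mel92.1 and 26 lower, where 34.5% and 34.8% of all genes were.

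**Figure D4:**
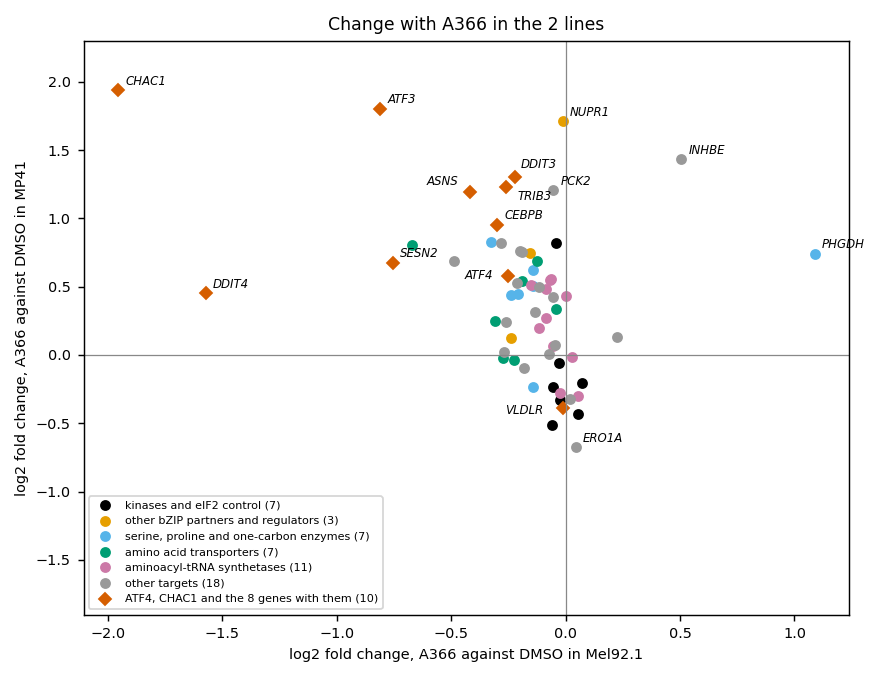
Log2 fold change with A366 against DMSO in Mel92.1 (horizontal axis) and in MP41 (vertical axis) for the 10 genes (diamonds) and for 53 other genes of the pathway tested in both lines (circles, by list). CHAC1 lies at -1.95 and 1.94, and the eIF2 kinases and controls lie near 0 on the horizontal axis and mostly below 0 on the vertical one, before any adjustment for GC content and length.

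The genes most like CHAC1 were sought among 11926 genes with at least 1 CPM on average in each line, by Pearson's r of log2 CPM over the 18 libraries after the mean of the line was taken away. The 5 highest were YARS, the tyrosyl-tRNA synthetase (r = 0.938), ASNS (0.936), MTHFD2, a mitochondrial folate enzyme (0.913), RARG, a retinoic acid receptor (0.912), and PMAIP1, which encodes the death protein NOXA (0.910). These points share the treatment groups and the libraries, so r is a description. Of the 10 genes, SESN2 came 6th (0.899), ATF3 9th (0.896), CEBPB 30th (0.860) and ATF4 44th (0.843). TRIB3 was number 193 (0.779), DDIT3 number 339 (0.746) and DDIT4 number 686 (0.692). VLDLR came at number 6830 with r = -0.06, at 0.26 within Mel92.1 and -0.41 within MP41. This order rested in part on Mel92.1 UNC0642 replicate 1. Without that library, a choice made after seeing the data, the 5 highest were SESN2 (0.964), ATF3 (0.947), YARS (0.941), ASNS (0.940) and PTDSS1, an enzyme of phosphatidylserine synthesis (0.938), followed by ATF4 (0.937). DDIT3 then came at number 34 (0.882), TRIB3 at number 36 (0.878), CEBPB at number 58 (0.856), DDIT4 at number 461 (0.764) and VLDLR at number 6858 (-0.14). Within Mel92.1, r of DDIT3 with CHAC1 was 0.03 over 9 libraries and 0.62 over 8 without that one, and that of ASNS was 0.92 and 0.88. Over the 9 libraries of MP41, r was 0.99 for both.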

How the data were processed

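RNA of 18 libraries was sequenced after selection with oligo-dT beads per the labels and the methods, while the deposited series text names removal of ribosomal RNA and another Illumina instrument. Expected counts per gene, not normalized, fill the deposited table, and the submitters' processing notes name RSEM 1.2.15, Bowtie2 2.1.0 and the build hg38. The methods describe alignment to a mouse build and FPKM values, which the table does not hold. Between 5.85% and 13.4% of a library's values are not whole (tolerance 1e-06). The libraries are strand-specific (dUTP), and whether counting used strand is not given in the sources used here. All library columns were used (0 left out).

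Counts were rounded and fitted per line (9 libraries) with edgeR 4.0.16 in R 4.3.3: filterByExpr, TMM, glmQLFit, glmQLFTest, Benjamini-Hochberg adjustment and a threshold of 0.05. Line differences came from 1 fit of the 18 libraries, whose TMM factors also scale the CPM. SE is the log2 fold change over the root of F. The genes and lists were chosen with earlier results of these data known. Named were the 10 genes, per inhibitor and direction up to 3 other pathway genes called without overlap, and the 5 genes most like CHAC1, on log2(CPM + 0.5). Replicates were grouped by the labels, except for the 4 exchanged libraries. A symbol was matched to GENCODE 29 by name (23899) or through a synonym (719), and 1857 were not found. GC content and length entered as an offset per library, the library's median for symbols not found. Alternatives used DESeq2 1.42.0, limma 3.58.1, other factors, filters, library sets and the replicate block. Data were simulated for UNC0642 against DMSO with 200 genes changed by a log2 of 1.5. The test of edgeR recovered 172 of 200 with 5 false calls in Mel92.1 (14387 genes) and 193 with 12 in MP41 (14784 genes). For the line difference it recovered 167 with 9 (15545 genes). DESeq2 recovered 185 with 45 false calls in Mel92.1 and 196 with 32 in MP41. Of the 10 genes, only CHAC1 in Mel92.1 changed by more than 1.5 with UNC0642, and recovery of smaller changes was not tested. Python 3.11.15, pandas 2.3.3 and matplotlib 3.10.9 made tables and plots.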

Additional observations from a re-analysis of the deposited data

Results flagged for a closer look

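For 9 of the 10 genes the interaction term of line and A366, taken as Mel92.1 minus MP41 on the log2 scale, was called lower, where 8.67% of all genes were. It was -0.86 for ATF4, -1.55 for DDIT3, -3.92 for CHAC1, -1.51 for TRIB3, -1.46 for SESN2, -2.05 for DDIT4, -1.64 for ASNS, -2.64 for ATF3 and -1.28 for CEBPB. For UNC0642 the same term was called for DDIT4, at -1.14, where 0.120% of all genes were called lower. These genes were chosen with their changes in both lines known, so the values are a description and no evidence of a difference, and 2 of the 3 A366 libraries of each line go against their labels. Groups of 3 libraries were not searched for single libraries far from the others.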

How the results depend on the processing

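Counts below are of the 10 genes (members) and of the other pathway genes called, first as reported and then under an alternative, and where no value is given the cause was not tested. With the libraries as labelled, which mixes the lines in both A366 groups, the members called went from 4 to 0 (UNC0642) and 3 to 0 (A366) in Mel92.1, from 2 to 0 and 10 to 2 in MP41, from 9 to 2 for A366 against UNC0642 in MP41, from 6 to 2 between the lines with DMSO, and from 1 to 0 (UNC0642) and 9 to 1 (A366) for the line differences. The other pathway genes went from 1 to 0 (UNC0642, Mel92.1), 2 to 0 (UNC0642, MP41) and 41 to 23 (A366, MP41). They went from 39 to 23 (A366 against UNC0642, MP41) and from 1 to 0 (line difference, UNC0642). As labelled, 32.8% of all genes were called with A366 in MP41 and 31% for A366 against UNC0642 there. Between the lines with DMSO 55.3% were called, and 49.4% for the line difference with A366. Where 0 members were called, 0 of all genes were. Directions of called values turned for A366 in Mel92.1 (CHAC1 0.78, SESN2 0.49, DDIT4 1.56, and of values not called DDIT3 1.70, ASNS 1.54, ATF3 0.81, CEBPB 0.78 and TRIB3 0.22), for A366 in MP41 (SESN2 -0.18, DDIT4 -0.87, ADM2 -0.081), for A366 against UNC0642 in MP41 (DDIT4 -0.87), and for the line difference with A366 (DDIT3 1.40, CHAC1 0.10, SESN2 0.66, DDIT4 2.395, ASNS 1.44, CEBPB 0.58). With the 4 exchanged libraries left out, the members with UNC0642 in Mel92.1 went to 0, where 0.263% of all genes were called. The other pathway genes with UNC0642 went to 0 in Mel92.1 and to 4 in MP41, where 0.73% of all genes were called. Calls with A366 are not given for that set, which leaves 1 A366 library per line.

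In Mel92.1 the other pathway genes were 1 with UNC0642, 0 with A366 and 0 for A366 against UNC0642 in edgeR. They were 4, 2 and 2 with DESeq2, and 7, 24 and 2 with limma voom. With all 18 libraries in 1 fit they were 4, 1 and 2, and with GC content and length as an offset 2, 1 and 2. Of all genes, DESeq2 called 2.64%, 1.18% and 1.47% there, and limma voom 2.84%, 21.2% and 1.47%. The fit of 18 libraries called 1.89%, 0.861% and 0.93%, and the offset for GC content and length 1.36%, 0.33% and 0.709%. That offset gave 5 with UNC0642 in MP41, where it called 0.903% of all genes. It turned VLDLR (A366 in MP41 0.043, A366 against UNC0642 in MP41 0.27, between the lines 0.32), EIF2AK2 (A366 in MP41 0.0046) and CHAC1 (between the lines -0.031). Limma voom called 9 members with A366 in Mel92.1 and 2 for the line difference with UNC0642, where it called 21.2% and 1.54% of all genes. The fit of all 18 libraries called 1 member with UNC0642 in MP41, and 0.0696% of all genes. Without a composition factor, 1 member was called with each inhibitor in Mel92.1, beside 0.124% (UNC0642) and 0.0964% (A366) of all genes. For the line difference with A366 that setting called 16 other pathway genes and 3.05% of all genes. With only the libraries compared, members with UNC0642 and A366 in Mel92.1 were 0 and 5, beside 0.297% and 0.855% of all genes. Other pathway genes with UNC0642 were then 0 in Mel92.1 and 4 in MP41, where 0.797% of all genes were called. The alternatives on members for the line differences were added after seeing the data.

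With the replicate number as a block, the members called in Mel92.1 were 1 for each inhibitor, and in MP41 1 with UNC0642. The other pathway genes with UNC0642 were 0 in Mel92.1 and 0 in MP41. The block called 0.317% (UNC0642) and 0.0688% (A366) of all genes in Mel92.1, and 0.0602% (UNC0642) in MP41. Whether the numbers pair the libraries was not settled, because differently numbered pairs were not compared. Of 18 same-numbered pairs, 5 had deviations correlated over 0.1, with r from -0.6 to 0.753.

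Without 1 library at a time, members called ranged from 0 to 5 (UNC0642) and 1 to 4 (A366) in Mel92.1, from 1 to 4 (UNC0642) and 10 to 10 (A366) in MP41, from 0 to 0 and 9 to 10 for A366 against UNC0642 in Mel92.1 and MP41, from 6 to 7 between the lines, and from 1 to 1 (UNC0642) and 9 to 10 (A366) for the line differences. Other pathway genes ranged from 0 to 2 and 0 to 1 in Mel92.1, from 0 to 3 and 37 to 42 in MP41, from 34 to 41 for A366 against UNC0642 in MP41, from 44 to 47 between the lines, and from 0 to 1 and 24 to 34 for the line differences. The share of all genes called in each of these fits is not given here, so the ranges have no background beside them. The members' depth was 12 to 21117 counts per library, lowest for ATF3.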
